A study of Mus musculus with 30 samples.

Results

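The circadian clock genes described here are 10 genes of 22180 measured in mouse lung: Arntl, Npas2, Clock, Nfil3, Per3, Dbp, Nr1d1, Nr1d2, Tef and Cry1. They were chosen by name, and each was read from the probe set annotated to that symbol alone, or from the brighter of 2 such probe sets in the case of Tef. The lungs came from c57BL/6 mice that were WT or Zmpste24-/-, lacking in the whole body the protease that matures prelamin A, and that age prematurely. Each mouse received saline or a single dose of bleomycin, a drug that injures the lung, by the oropharyngeal route, and lungs were taken at day 21. There were 30 arrays in 10 groups of 3, run at different moments as 2 sets of 15 arrays. Set 1 held 16-week Zmpste24-/- saline, 16-week Zmpste24-/- bleomycin, 7-week Zmpste24-/- saline, 16-week WT saline and 16-week WT bleomycin lungs. Set 2 held 7-week WT saline, 82-week WT saline, 82-week WT bleomycin, 7-week Zmpste24-/- saline and 7-week Zmpste24-/- bleomycin lungs. The labels of the 16-week WT groups call them both young and old, so their age is in doubt. Per the study's methods, the 3 arrays of a group held RNA of different biological samples. The sources used here do not give the hour at which lungs were taken or whether such a sample is a single mouse. That hour therefore cannot be told apart from age, genotype, bleomycin or set in any comparison of the clock genes.

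The mammalian clock is a loop of transcription factors that turns once a day in almost every tissue, lung included. The protein of Arntl, BMAL1, pairs with that of Clock or its relative Npas2 and switches on genes that carry an E-box, among them the Period and Cryptochrome genes, Nr1d1, Nr1d2, Dbp and Tef. PER and CRY proteins then hold BMAL1 and CLOCK back, while NR1D1 and NR1D2 repress Arntl and Nfil3 through sites named ROREs. DBP and TEF activate, and NFIL3 represses, genes with a D-box, such as Per3. Arntl, Npas2, Clock and Nfil3 therefore peak at about the opposite time of day from Dbp, Nr1d1, Nr1d2, Tef and Per3, and Cry1 peaks later than the other E-box genes. In the text, Arntl, Npas2, Clock, Nfil3 and Cry1 are called the Arntl side, and Per3, Dbp, Nr1d1, Nr1d2 and Tef the Dbp side.

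Letter matches to these elements lay in the start regions of 6 of the 10 genes, and stretches around them are shown because the data concern genes linked through such elements. They come from RefSeq (GRCm38.p6), in windows of 250 bases before and 50 after the listed start of each gene, searched on both strands. All 10 genes matched the table, and the 4 without a match in these windows are Npas2, Clock, Dbp and Nr1d2. Capitals mark the motif, which is a letter match and not a measured binding site. The shares given below count windows, for each motif apart, and a gene can have several windows. They are therefore not like-for-like with the count of genes above. The share of all genes with a match to any of these motifs was not determined, so enrichment was not tested. The RORE core TAGGTCA lay in a window of Arntl (chr7:113207529-113207558, plus strand) and of Nfil3 (chr13:52981041-52981063, minus strand), and in 2.61% of all 32851 windows.
Arntl: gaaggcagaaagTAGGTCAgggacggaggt
Nfil3: ggcgctcggaacTGACCTActaa
The E-box CACGTG lay in windows of Tef (chr15:81802521-81802576, plus strand) and Cry1 (chr10:85185094-85185150, minus strand), and in 7.15% of all windows. Its variant CACGTT, read as AACGTG on the other strand, lay in windows of Cry1 and Nr1d1 (chr11:98775380-98775430, minus strand) and in 4.68% of all windows. The motifs shown do not overlap each other.
Tef: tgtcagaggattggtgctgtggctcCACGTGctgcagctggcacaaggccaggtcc
Cry1: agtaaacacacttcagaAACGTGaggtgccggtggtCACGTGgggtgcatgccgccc
Nr1d1: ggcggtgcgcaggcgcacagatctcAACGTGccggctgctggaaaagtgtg
The D-box TTANGTAA lay in a window of Per3 (chr4:151044804-151044882, minus strand), where it occurs 2 times, and in 2.32% of all windows.
Per3: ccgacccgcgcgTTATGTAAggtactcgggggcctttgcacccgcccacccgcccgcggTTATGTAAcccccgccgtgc

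Several arrays stood apart or went against their labels. Comparisons between groups that rest on the 3 arrays described below are also given without them. That leaves 2 arrays of 7-week Zmpste24-/- saline lungs in set 1 and 1 in set 2. The test among all 10 groups and the ranking of genes like Arntl are not given without them. Zmpste24 had a log2 level of 7.93 to 8.68 on the 15 arrays labelled WT and 5.29 to 6.56 on 12 arrays labelled Zmpste24-/-, but 7.55 to 7.93 on the other 3, which are replicate 2 of the 7-week Zmpste24-/- saline group of set 1 and replicates 2 and 3 of that of set 2. Those 3 arrays also had Ucp1, a brown fat gene, at 8.72 to 9.13. Krt4, a gene of squamous epithelium, was at 11.40 to 11.82 on 5 of the 6 arrays of 7-week Zmpste24-/- saline lungs, and at 6.22 on replicate 1 of set 1. Replicate 3 of the 16-week Zmpste24-/- saline group had the lowest mean correlation with the other arrays, 0.94 against 0.97 to 0.98. Each 16-week WT saline array of set 1 correlated best with a 7-week WT saline array of set 2 (r of 0.99), and replicates 2 and 3 of 7-week Zmpste24-/- saline of set 1 did so with replicates 3 and 1 of that group in set 2 (r of 0.99). The sources used here do not say whether a lung was run in both sets. Lung genes were bright throughout, with Sftpc, a surfactant protein of alveolar type 2 cells, at 12.84 to 13.52. In whole lung, fewer cells of a type and less RNA per cell cannot be told apart.

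Across the 10 groups, 7 of the 10 clock genes passed limma's test of any difference among group means, against 28.3% of all genes tested. Cry1, a repressor of CLOCK and BMAL1, had the smallest adjusted p of the 10 (3.12e-06), followed by Nr1d1, a repressor of Arntl (2.87e-05), and Tef, a D-box activator (0.000553). Per3 (adjusted p = 0.00492), Nr1d2 (0.00876), Dbp (0.0143) and Nfil3 (0.0196) also passed. Arntl, Clock and Npas2, the activators at the head of the loop, did not, with adjusted p of 0.239, 0.317 and 0.675. Group means of Nr1d1 spanned 1.83 on the log2 scale, those of Per3 1.65, those of Dbp 1.63 and those of Npas2 0.64.

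**Figure D1:**
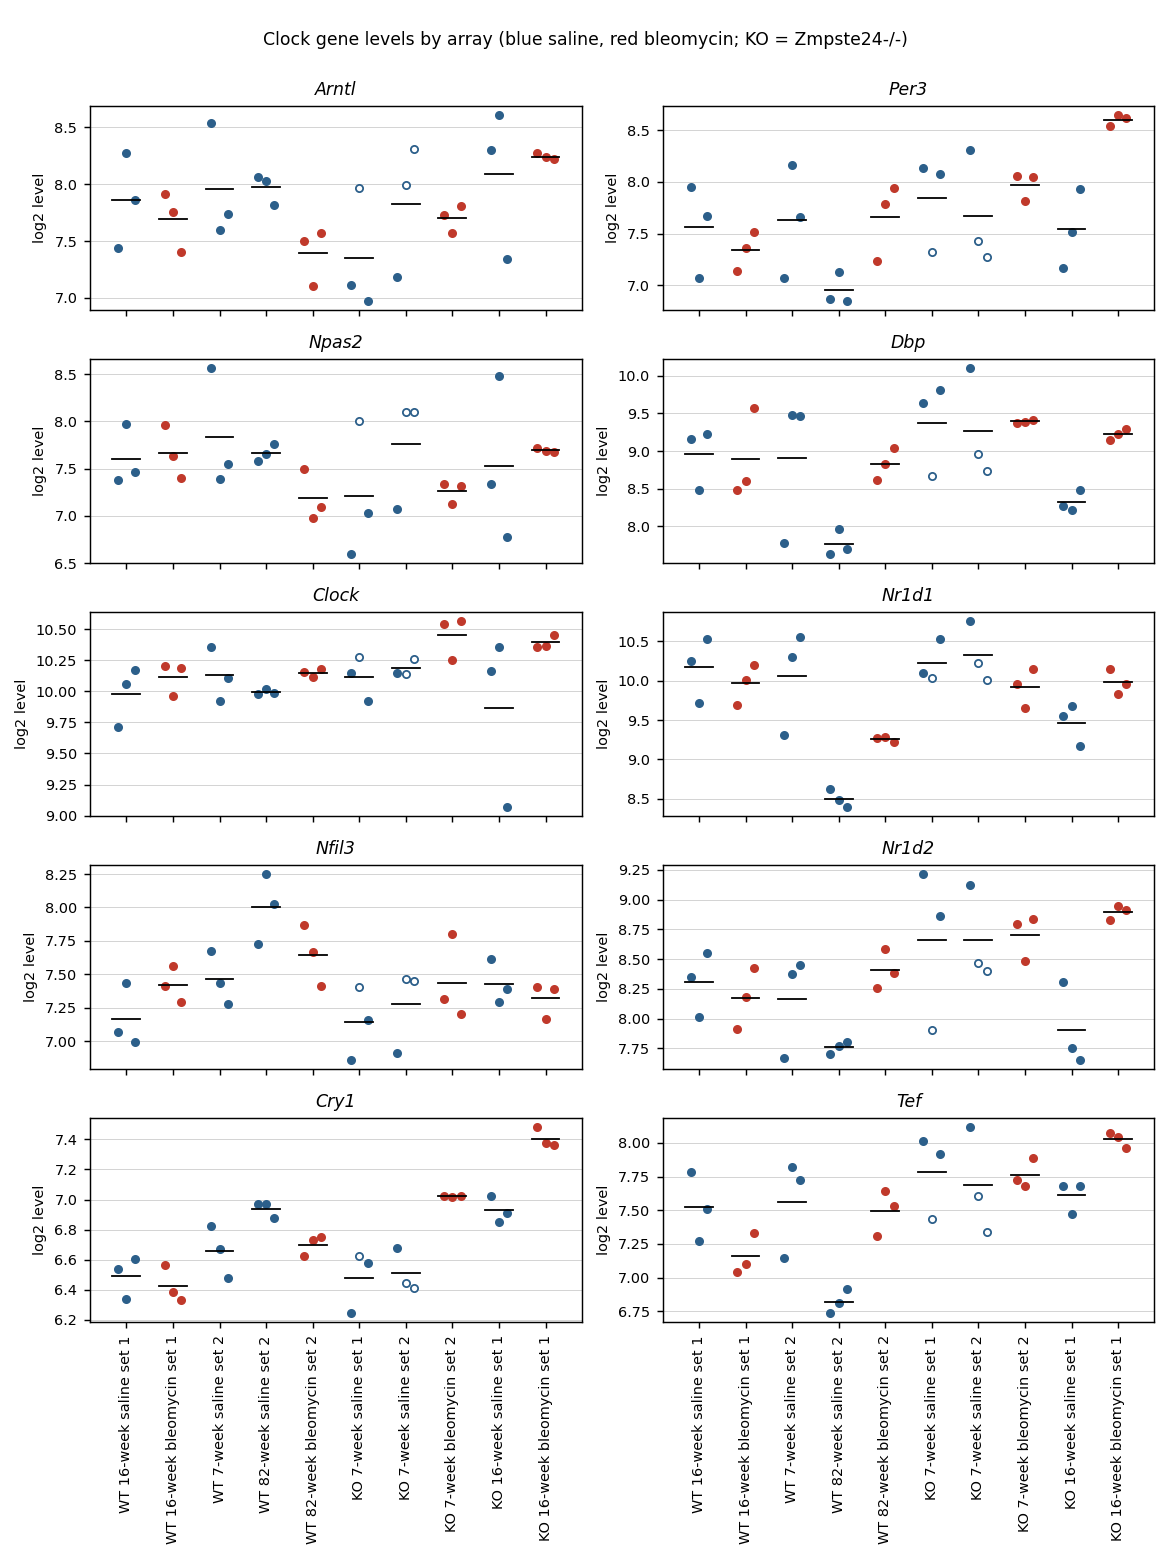
Log2 level of each clock gene on every array, by group, with the Arntl side in the left column and the Dbp side in the right. Points are arrays, bars group means, and hollow points the 3 arrays labelled Zmpste24-/- (KO in the plot) on which Zmpste24 was at 7.55 to 7.93. The scale of the vertical axis differs between genes. The lungs of 82-week WT saline mice have the lowest mean of all 5 genes in the right column.

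The order of the groups was clearest for Cry1. Its levels were 6.56, 6.39 and 6.33 in 16-week WT bleomycin lungs, the lowest group, and 7.48, 7.37 and 7.36 in 16-week Zmpste24-/- bleomycin lungs, the highest. The next highest were 7-week Zmpste24-/- bleomycin lungs at 7.03, 7.01 and 7.02. Both injured Zmpste24-/- groups thus lay above every other array except a single 16-week Zmpste24-/- saline array at 7.02, which fell within the 7-week group. Of the 9 pairs of neighbours in the order of means, 6 overlapped. The 3 that did not were 82-week WT bleomycin and 16-week Zmpste24-/- saline, 82-week WT saline and 7-week Zmpste24-/- bleomycin, and both injured Zmpste24-/- groups.

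The 5 genes of the Dbp side had their lowest mean in the same group, 82-week WT saline. Nr1d1 was at 8.62, 8.49 and 8.40 there, against 9.27, 9.29 and 9.22 in 82-week WT bleomycin lungs, the next group up, and 9.17 to 10.75 on the 24 arrays of the 8 other groups. Dbp, a D-box activator and a strongly rhythmic output of the clock, was at 7.63, 7.97 and 7.69 in 82-week WT saline lungs, and the lowest arrays elsewhere were a 7-week WT saline array at 7.78 and a 16-week Zmpste24-/- saline array at 8.22. Per3 was at 6.87, 7.13 and 6.85, and Tef at 6.74, 6.81 and 6.92, in 82-week WT saline lungs. Tef was higher on every array of the other groups, at 7.05 to 8.12, and Per3, at 7.07 to 8.65, on all but 2, a 16-week WT saline and a 7-week WT saline array at 7.07 each.

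At the top of the order, Per3, Nr1d2 and Tef had their highest mean in 16-week Zmpste24-/- bleomycin lungs, at 8.54 to 8.65, 8.83 to 8.95 and 7.96 to 8.08. Single 7-week Zmpste24-/- saline arrays were higher for Nr1d2 (9.21 and 9.12) and Tef (8.12). Dbp had its highest mean in 7-week Zmpste24-/- bleomycin lungs, at 9.38, 9.39 and 9.41, although the 3 highest single arrays were 7-week Zmpste24-/- saline arrays at 9.63 to 10.10. Neighbours in the order overlapped in 7 of 9 pairs for Per3 and Dbp, in 8 of 9 for Nr1d1, Tef and Clock, and in 9 of 9 for Nr1d2, Nfil3, Arntl and Npas2. For most genes the order of the groups between its ends is therefore not resolved by 3 arrays each.

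Most of these genes also varied between arrays of a single group. The standard deviation within groups was 0.50 (log2) for Dbp, 0.48 for Npas2, 0.41 for Arntl, 0.37 for Per3, 0.34 for Nr1d2 and 0.33 for Nr1d1, against a median of 0.21 over all genes tested. These values stand at the 98.9th, 98.6th, 96.6th, 94.9th, 92.1st and 90.7th percentile of all genes. Clock, Nfil3 and Tef were closer to the middle, at the 75.3rd, 64.4th and 63.5th percentile. Cry1 was at the other end, with a standard deviation of 0.12 at the 4.5th percentile. The share of variance lying between groups was 89.9% for Cry1, 79.9% for Nr1d1, 74.3% for Tef, 64.0% for Per3, 62.0% for Nr1d2, 60.6% for Nfil3 and 58.3% for Dbp, against a median of 44.6% over all genes. It was below that median for Arntl (39.7%), Clock (38.9%) and Npas2 (24.7%). When the 3 arrays with Zmpste24 near the WT level were left out, the standard deviation within groups was 0.44 for Dbp, 0.42 for Npas2, 0.35 for Arntl, 0.32 for Per3, 0.32 for Nr1d1 and 0.25 for Nr1d2, that of Nr1d2 then being at the 71.1st percentile and that of Tef at the 34.0th. The share between groups was then 59.8% for Arntl, above a median of 46.5% over all genes.

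The spread within groups was shared between genes and ran in opposite directions on the 2 sides. In 7-week WT saline lungs, Arntl was at 8.54 on replicate 1 and at 7.60 and 7.73 on replicates 2 and 3. Npas2 followed, at 8.56 against 7.39 and 7.55. Dbp was lower on that array, at 7.78 against 9.49 and 9.47, as was Nr1d1, at 9.30 against 10.30 and 10.55. Replicate 2 of 16-week WT saline lungs had the same pattern, with Arntl at 8.28 against 7.44 and 7.86, and Per3 at 7.07 against 7.95 and 7.67. In 16-week WT bleomycin lungs, Dbp was at 9.58 on replicate 3, which had the lowest Arntl of the group at 7.41, and at 8.48 and 8.61 on the other arrays, with Arntl at 7.91 and 7.75.

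The 6 arrays of 7-week Zmpste24-/- saline lungs, which carry the same group label in both sets, also divided in this way. Arntl was at 7.11, 7.97 and 6.97 in set 1 and at 7.19, 7.99 and 8.31 in set 2. Dbp was at 9.63, 8.67 and 9.81 in set 1 and at 10.10, 8.96 and 8.74 in set 2. Per3 was at 8.13, 7.33 and 8.07 in set 1 and at 8.31, 7.43 and 7.27 in set 2. The 3 arrays high in Arntl and low in Dbp and Per3 are the same 3 on which Zmpste24 was near the WT level and Ucp1 was high, and the part of either in this pattern was not tested. Krt4 was high on arrays of both kinds.

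**Figure D2:**
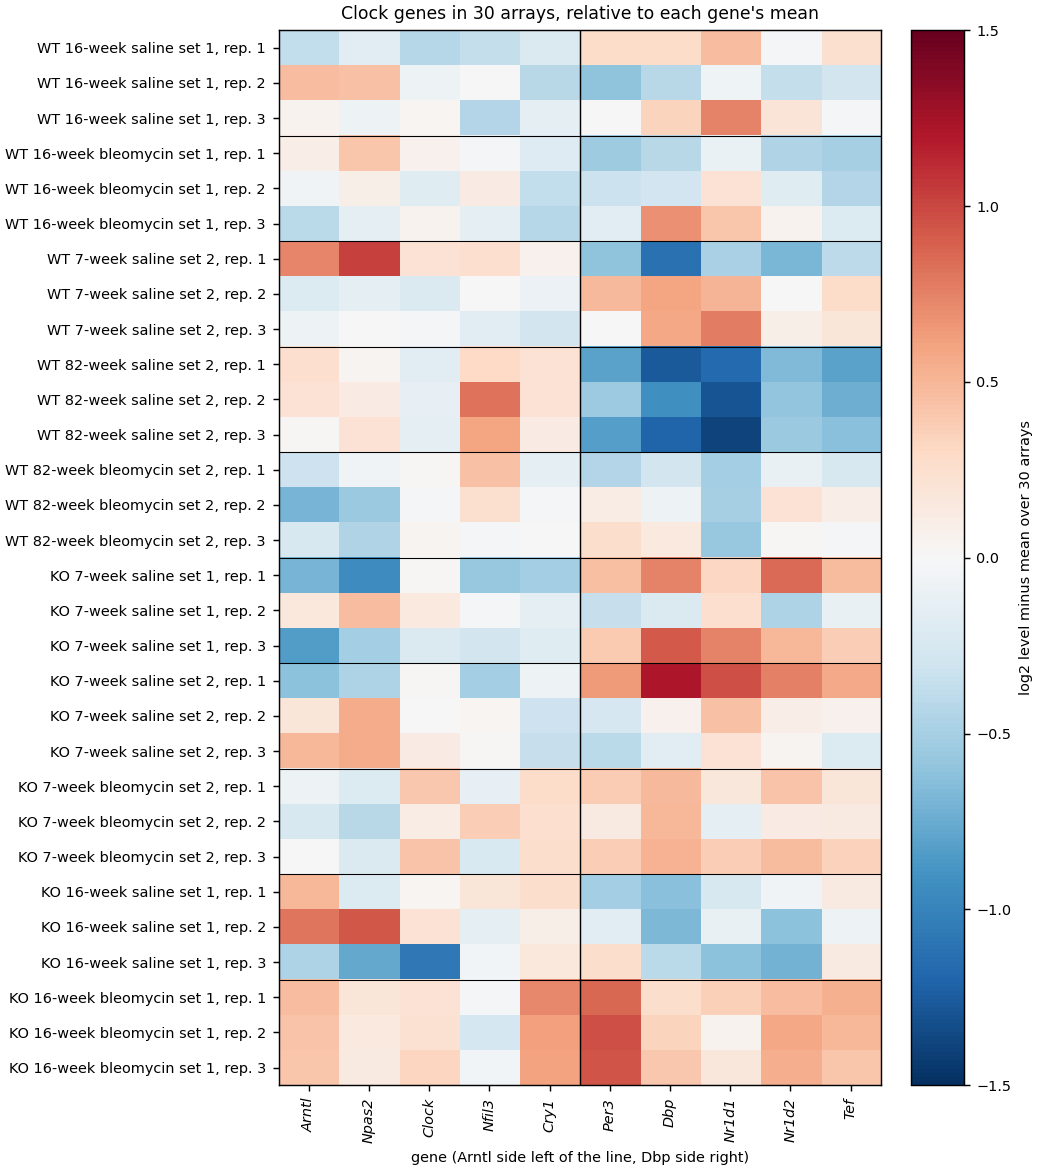
Log2 level of the 10 clock genes on 30 arrays, each gene relative to its mean over all arrays (red above, blue below, KO for Zmpste24-/-). Horizontal lines divide groups and the vertical line divides the Arntl side from the Dbp side. Arrays that are red on the left are often blue on the right. Among the exceptions are the 3 16-week Zmpste24-/- bleomycin arrays, which are above the mean on both sides for most genes. The 7-week Zmpste24-/- bleomycin arrays also have side means above average on both sides, and the 82-week WT bleomycin arrays below average on both.

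Over all 30 arrays, Npas2 correlated with Arntl with a Pearson r of 0.84 and a Spearman rho of 0.82 (two-sided permutation test, p = 1e-05 for each, the smallest that 100000 permutations can give, 9e-05 after Benjamini-Hochberg adjustment over the 9 genes compared). Dbp correlated inversely, with r of -0.56 and rho of -0.58 (permutation p = 0.00138 and 0.00085, adjusted 0.00621 and 0.00382). The other 7 genes did not pass, with r from -0.39 (Nr1d2) to 0.42 (Clock). Within set 1, r was 0.80 for Npas2 and -0.60 for Dbp (adjusted permutation p = 0.00243 and 0.0591). Within set 2, r was 0.89 for Npas2, -0.60 for Dbp, -0.64 for Per3, -0.63 for Nr1d2 and -0.58 for Tef (adjusted permutation p from 9e-05 to 0.0457). Without the 2 arrays farthest from the median of Arntl, r was 0.81 for Npas2 and -0.48 for Dbp. Leaving out the 3 arrays with Zmpste24 near the WT level gave an r of 0.84 for Npas2, -0.56 for Dbp and 0.48 for Cry1 over 27 arrays (adjusted permutation p = 9e-05, 0.011 and 0.0342). Permutation treats the 30 arrays as independent, and whether a lung was run in both sets is not stated.

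Once each array was set against the mean of its own group, the inverse relation extended to the whole Dbp side. The correlation of deviations with those of Arntl was 0.89 for Npas2, 0.72 for Clock and 0.43 for Nfil3. It was -0.85 for Tef, -0.82 for Per3, -0.80 for Dbp, -0.61 for Nr1d2 and -0.46 for Nr1d1. That of Cry1 was 0.05. Of the 20 pairs of genes on the same side, 20 had a positive correlation of deviations, with a median of 0.66. Of the 25 pairs on opposite sides 3 did, with a median of -0.56. Pairs of Cry1 with genes of its own side were near none, at 0.05 to 0.08, as was that of Clock with Nfil3 (0.004). Over the 26 arrays of groups that still had more than 1 once the 3 arrays with Zmpste24 near the WT level were left out, the correlation with Arntl was 0.85 for Npas2, 0.81 for Clock, -0.75 for Tef, -0.71 for Per3 and -0.68 for Dbp. It was weaker for Nr1d2 (-0.34), Nr1d1 (-0.31) and Nfil3 (0.18). Of the 20 pairs on the same side 19 were then positive, with a median of 0.65. Of the 25 on opposite sides 2 were, with a median of -0.42. These are descriptions over arrays that share group means, given with no test.

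**Figure D3:**
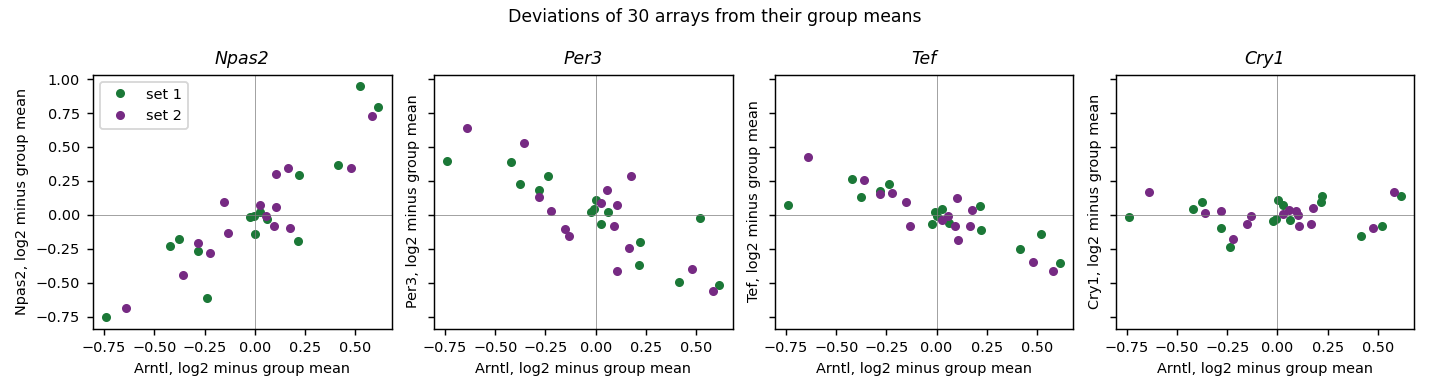
Deviation of each of 30 arrays from its group mean (log2) for Arntl, on the horizontal axis, and for Npas2, Per3, Tef and Cry1. Points are arrays, coloured by set. Npas2 deviates with Arntl (r of 0.89), Per3 and Tef against it (-0.82 and -0.85), and Cry1 stays within a narrow band (0.05).

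Groups differed in how alike their arrays were. The mean of the Arntl side minus the mean of the Dbp side, each gene taken relative to its mean over 30 arrays, was 1.07, 1.07 and 1.08 in 82-week WT saline lungs. It was -0.18, -0.26 and -0.21 in 16-week Zmpste24-/- bleomycin lungs, and -0.28, -0.14 and -0.37 in 7-week Zmpste24-/- bleomycin lungs. In 82-week WT bleomycin lungs it was 0.31, -0.19 and -0.10. By contrast it was 1.12, -0.51 and -0.43 in 7-week WT saline lungs, -0.56, 0.42 and -0.36 in 16-week WT saline lungs and 0.48, 0.13 and -0.37 in 16-week WT bleomycin lungs. In 7-week Zmpste24-/- saline lungs it was -1.11, 0.30 and -0.99 in set 1 and -1.16, 0.01 and 0.27 in set 2, and in 16-week Zmpste24-/- saline lungs 0.41, 0.71 and -0.17. The first 3 groups listed here thus each sat in a narrow range. The highest of the 30 arrays was a 7-week WT saline array and the lowest a 7-week Zmpste24-/- saline array.

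**Figure D4:**
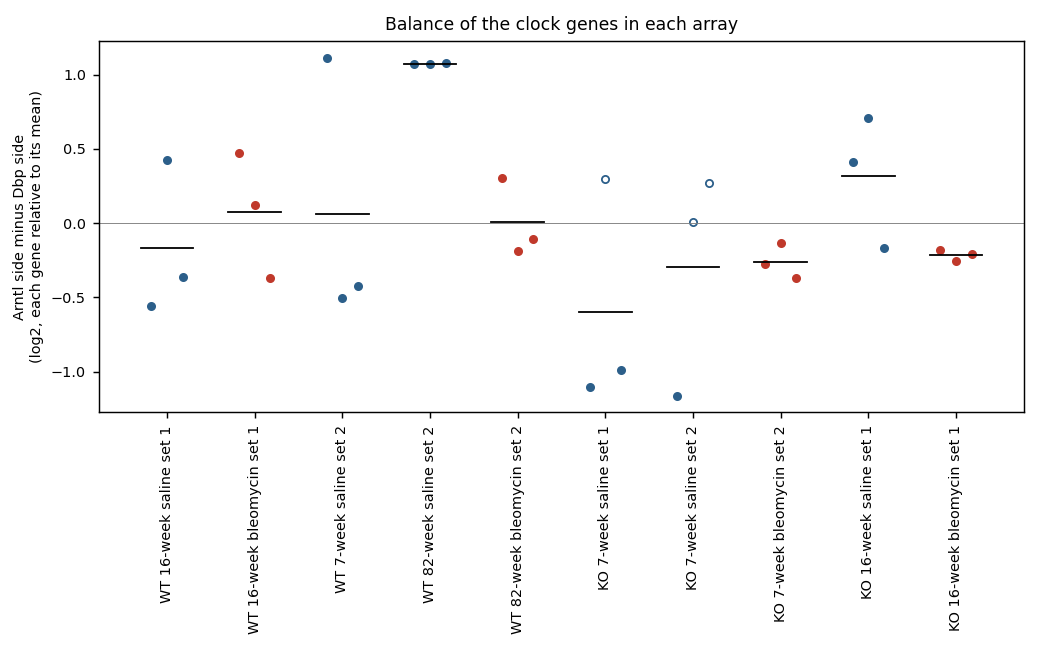
Mean of the Arntl side minus mean of the Dbp side on each array (log2, each gene relative to its mean over 30 arrays), by group (KO for Zmpste24-/-). Points are arrays (blue saline, red bleomycin, hollow the 3 arrays with Zmpste24 near the WT level), bars group means. The 3 arrays of 82-week WT saline lungs lie at 1.07 to 1.08, while those of 7-week WT saline lungs run from -0.51 to 1.12.

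Bleomycin in 82-week WT mice was compared with saline to ask how injured old lungs differ. On the array level the clock genes moved apart from their saline controls, but none passed the test over all genes (0 of 10 by limma at an adjusted p under 0.05, 5 of 10, all of the Dbp side, at an unadjusted p under 0.05), where 1.01% of all genes did. For 9 of the 10 genes the 3 bleomycin and the 3 saline arrays did not overlap, against 21.7% of all genes. Dbp was at 8.62, 8.82 and 9.04 after bleomycin and at 7.63, 7.97 and 7.69 after saline, a difference of 1.06 ± 0.36 (SE, adjusted p = 0.195). Tef was at 7.31, 7.64 and 7.53 against 6.74, 6.81 and 6.92, a difference of 0.67 ± 0.18 (adjusted p = 0.0789). All 5 genes of the Dbp side were higher on every bleomycin array than on any saline array, by 0.65 to 1.06, and Arntl, Npas2 and Cry1 lower, with differences of -0.58, -0.48 and -0.24. Clock, although of the Arntl side, was higher on every bleomycin array (10.11 to 10.18 against 9.98 to 10.02, a difference of 0.15), and the groups overlapped for Nfil3. Tef passed when the 3 arrays with Zmpste24 near the WT level were left out of the fit (adjusted p = 0.0374), and Dbp, Nr1d1 and Nr1d2 when only these 6 arrays were fitted (adjusted p = 0.0217, 0.0217 and 0.049).

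In 16-week Zmpste24-/- mice, bleomycin and saline lungs differed in 3 of 10 clock genes, where 10.6% of all genes were called. Per3 was at 8.54, 8.65 and 8.62 after bleomycin and at 7.17, 7.52 and 7.94 after saline, and rose by 1.06 ± 0.28 (SE, limma adjusted p = 0.0138). Nr1d2, which like Nr1d1 represses Arntl, was at 8.83, 8.95 and 8.91 against 8.31, 7.75 and 7.65, and rose by 0.99 ± 0.25 (adjusted p = 0.0118). Cry1 was at 7.48, 7.37 and 7.36 against 7.02, 6.85 and 6.91, and rose by 0.48 ± 0.12 (adjusted p = 0.00998). The arrays of the 2 groups did not overlap for these 3 nor for Clock, Dbp, Nr1d1 and Tef, making 7 of 10 genes, against 21.3% of all genes. Dbp, at 9.15, 9.23 and 9.30 against 8.27, 8.22 and 8.48, differed by 0.90 ± 0.36 (adjusted p = 0.112).

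On the Arntl side the same comparison gave 0.16 ± 0.30 for Arntl, 0.17 ± 0.35 for Npas2 and -0.11 ± 0.18 for Nfil3, none past the threshold. Clock was at 10.36, 10.37 and 10.46 after bleomycin and at 10.16, 10.35 and 9.07 after saline, and the lowest of these is the array that stood apart from all others. Clock passed without replicate 1 or 2 of the saline group (0.68 and 0.78, adjusted p = 0.0329 and 0.0104). Both of these fits keep the array at 9.07. The saline arrays other than that, at 10.16 and 10.35, lie just below the bleomycin arrays. The call of Nr1d2 was lost without the array that stood apart (0.86, adjusted p = 0.0612) and with array weights (0.82, adjusted p = 0.099), that of Per3 without replicate 2 of the bleomycin group (1.04, adjusted p = 0.052) and under quantile normalization (0.87, adjusted p = 0.0652). All 3 calls were lost when only these 6 arrays were fitted, with adjusted p from 0.0719 to 0.282. Beside these genes, 6 of 6 lymphocyte markers were lower after bleomycin, with a mean level of 6.74 to 7.08 against 8.33 to 8.76. Of 14 genes that respond to glucocorticoids, hormones that can reset the clock of peripheral tissues, 11 were higher, with a mean level of 9.82 to 9.92 against 8.62 to 9.35. That level was also higher after bleomycin in 82-week WT lungs (9.11 to 9.13 against 8.63 to 8.69, 2 of 14 called). In 7-week Zmpste24-/- lungs it was 9.25 to 9.88 against 8.84 to 9.12 (4 of 14 called). In 16-week WT lungs the levels overlapped (0 of 14 called). The shares of all genes called were 1.01%, 4.73% and 0.721%. The part of lymphocytes or of glucocorticoids in the clock gene values was not tested.

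In 7-week Zmpste24-/- mice, Cry1 was the single clock gene called after bleomycin, 1 of 10 where 4.73% of all genes were called. It was at 7.03, 7.01 and 7.02 after bleomycin and at 6.68, 6.44 and 6.41 after saline, and rose by 0.51 ± 0.12 (SE, limma adjusted p = 0.00929). Without the 3 arrays with Zmpste24 near the WT level, which leaves a single saline array, the difference was 0.34 (adjusted p = 0.563). Leaving out either replicate 2 or replicate 3 of the saline group alone gave 0.47 and 0.46 (adjusted p = 0.0565 and 0.0684). The other genes differed by -0.50 (Npas2) to 0.30 (Per3), and their groups overlapped. The groups did not overlap for 1 of 10 genes, Cry1, against 26.1% of all genes. For Arntl, at 7.73, 7.57 and 7.80 after bleomycin and 7.19, 7.99 and 8.31 after saline, the saline arrays spanned the bleomycin arrays, while for Clock, Nfil3 and Nr1d1 they did not. Against the single saline array left without those 3 arrays, the difference was 0.51 for Arntl in place of -0.13, 0.19 for Npas2 in place of -0.50, -0.34 for Per3 in place of 0.30, -0.71 for Dbp in place of 0.13, -0.41 for Nr1d2 in place of 0.04 and -0.35 for Tef in place of 0.08. Nr1d1 then differed by -0.83 in place of -0.41 and Nfil3 by 0.52 in place of 0.16. None of these passed (limma adjusted p from 0.391 to 0.959), and the lone array is assumed to vary like the other groups. The saline group also held the squamous and muscle RNA: 9 of 11 squamous epithelium markers were lower after bleomycin (mean level of 5.11 to 5.28 against 7.53 to 7.60) and 8 of 9 skeletal muscle markers (5.40 to 5.62 against 7.71 to 7.91), and their part was not tested.

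In 16-week WT mice no clock gene was called after bleomycin (0 of 10 by limma, also 0 of 10 at an unadjusted p under 0.05), where 0.721% of all genes were. Differences ran from -0.36 ± 0.18 for Tef to 0.26 ± 0.18 for Nfil3. The arrays of both groups overlapped for all 10 genes, while 15.4% of all genes had groups that did not overlap. Per3, for example, was at 7.14, 7.36 and 7.52 after bleomycin and at 7.95, 7.07 and 7.67 after saline.

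**Figure D5:**
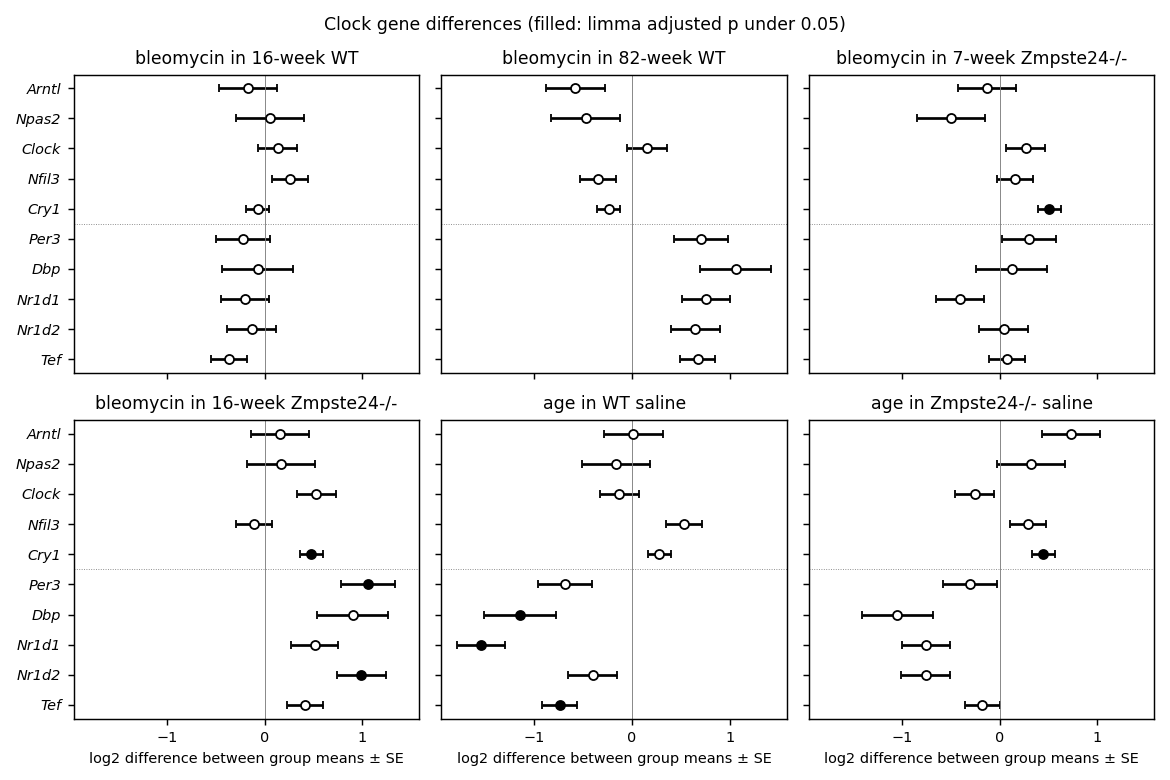
Log2 difference between group means ± SE for each clock gene in the 4 bleomycin comparisons and the 2 age comparisons of saline lungs (3 arrays a group). Filled points have a limma adjusted p under 0.05 over all genes, and the dotted line divides the Arntl side, above, from the Dbp side. Cry1 is the gene filled in both Zmpste24-/- bleomycin panels, and Dbp, Nr1d1 and Tef are filled in the WT age panel.

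The bleomycin effects were then set against each other. Between 16-week Zmpste24-/- and 16-week WT mice, 0 of 10 clock genes differed in their response by limma (5 of 10 at an unadjusted p under 0.05), where 4.37% of all genes did. The smallest adjusted p were those of Per3, with a difference of 1.28 ± 0.39 (SE, adjusted p = 0.0565), Cry1, with 0.55 ± 0.17 (0.0591), and Nr1d2, with 1.12 ± 0.36 (0.0683). Dbp (0.97 ± 0.52), Tef (0.78 ± 0.26) and Nr1d1 (0.71 ± 0.35) also differed by more than Cry1. Without the 3 arrays with Zmpste24 near the WT level in the fit, Per3, Nr1d2 and Tef passed (adjusted p = 0.0354, 0.026 and 0.0493). Per3 also passed without replicate 2 of 16-week WT saline or replicate 3 of 16-week Zmpste24-/- saline (1.53 and 1.48), and Cry1 without the first of these (0.62). Without replicate 1 of 16-week Zmpste24-/- saline Nr1d2 and Cry1 passed (1.33 and 0.59).

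A further pair of contrasts, added after the values were seen, set both Zmpste24-/- responses against that of 82-week WT mice, in which Cry1 was lower after bleomycin (6.62, 6.73 and 6.75 against 6.97, 6.97 and 6.88). Cry1 was the 1 gene of 10 called in each, where 2.64% and 1.39% of all genes were called. Genotype and age differ together in both contrasts and cannot be told apart. Its response in 7-week Zmpste24-/- mice exceeded that in 82-week WT mice by 0.75 ± 0.17 (SE, adjusted p = 0.0115), and that in 16-week Zmpste24-/- mice did so by 0.72 ± 0.17 (adjusted p = 0.0298). Without the 3 arrays with Zmpste24 near the WT level, the first was 0.58 (adjusted p = 0.272). The second crosses the sets, lost its call without any of 7 of its 12 arrays (replicates 1 and 2 of both 82-week WT groups and all 3 of 16-week Zmpste24-/- bleomycin, at 0.68 to 0.74, adjusted p from 0.0563 to 0.0767), and uses the same 82-week WT arrays as the first. Nr1d1 differed in the opposite direction in the first contrast, by -1.16 ± 0.35 (adjusted p = 0.0727).

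Ageing without injury was compared in saline lungs. In WT mice of set 2, 82-week lungs differed from 7-week lungs in 3 of 10 clock genes, all of the Dbp side, where 8.12% of all genes were called. Nr1d1 was at 8.62, 8.49 and 8.40 against 9.30, 10.30 and 10.55, and fell by 1.55 ± 0.24 on the log2 scale (SE, limma adjusted p = 0.000125). Tef was at 6.74, 6.81 and 6.92 against 7.15, 7.82 and 7.72, and fell by 0.74 ± 0.18 (adjusted p = 0.0102). Dbp was at 7.63, 7.97 and 7.69 against 7.78, 9.49 and 9.47, and fell by 1.15 ± 0.36 (adjusted p = 0.0497), so that the young array of high Arntl overlapped the old lungs. Nfil3, the D-box repressor, was at 7.73, 8.25 and 8.02 against 7.68, 7.44 and 7.28 (0.54 ± 0.18, adjusted p = 0.0745), and Arntl differed by 0.01 ± 0.30. The groups did not overlap for Nr1d1, Tef, Nfil3 and Cry1, 4 of 10 genes, against 30.9% of all genes.

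Nr1d1 kept its call in all 18 alternatives run for that comparison, at -1.92 to -1.30. Tef lost it without replicate 2 or 3 of the 7-week group (-0.61 and -0.66, adjusted p = 0.0912 and 0.0631), and Dbp without either of these (-0.86 and -0.87, adjusted p = 0.294 and 0.265) or any of the 3 old arrays (-1.25 to -1.08, adjusted p from 0.0858 to 0.151). Per3 passed without replicate 1 of the 7-week group (-0.96, adjusted p = 0.0378). In the old lungs 8 of 8 macrophage markers were higher, with a mean level of at least 9.92 against at most 8.21, and 7 of 8 cardiac muscle markers lower, at 7.40 to 7.45 against 8.33 to 9.17. The part of these cells in the clock gene values was not tested.

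In Zmpste24-/- mice of set 1, 16-week saline lungs differed from 7-week ones in 1 of 10 clock genes, where 1.83% of all genes were called. Cry1 was at 7.02, 6.85 and 6.91 against 6.25, 6.62 and 6.58, and rose by 0.45 ± 0.12 (SE, limma adjusted p = 0.0464). That call was lost without any of 5 of the 6 arrays (0.33 to 0.52, adjusted p from 0.0703 to 0.194), replicate 2 of the 16-week group being the exception. Without the 3 arrays with Zmpste24 near the WT level, Nr1d2 was the gene called instead and fell by 1.14 (adjusted p = 0.0196). Nr1d2 also passed without replicate 2 of the 7-week group (-1.14, adjusted p = 0.0215) or replicate 1 of the 16-week group (-0.96, adjusted p = 0.0381). With all 6 arrays of 7-week Zmpste24-/- saline lungs as controls, Dbp, Nr1d1 (-0.81), Nr1d2 (-0.76) and Cry1 were called, Dbp close to the threshold (adjusted p = 0.0476). Dbp did not overlap between the groups of set 1, at 8.22 to 8.48 against 8.67 to 9.81. Nr1d1, at 9.17 to 9.67 against 10.04 to 10.53, and Cry1 did not either, making 3 of 10 genes, against 10.1% of all genes. Squamous epithelium markers were lower in 16-week lungs in 7 of 11 cases and skeletal muscle markers in 7 of 9, and their part was not tested. The age effect differed between genotypes for 0 of 10 genes by limma (2 of 10, Nr1d1 and Tef, at an unadjusted p under 0.05), where 5.69% of all genes differed. It did so for 0 of 10 also without the 3 arrays with Zmpste24 near the WT level, and Nr1d1 passed without replicate 1 of 7-week WT saline (1.17, adjusted p = 0.0192). The older mice were of unlike age in the genotypes, and each age effect lies in its own set. Genotype, span of age and set therefore cannot be told apart in this contrast.

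Genotype was compared at rest and after injury. In 7-week saline lungs 0 of 10 clock genes were called (limma, 0 of 10 at an unadjusted p under 0.05), where 2.88% of all genes were, and the largest of the 10 differences was 0.50 ± 0.25 for Nr1d2. Without the 3 arrays with Zmpste24 near the WT level, which leaves 1 Zmpste24-/- array, the differences included 1.19 for Dbp in place of 0.36, 0.96 for Nr1d2, 0.70 for Nr1d1 in place of 0.28, 0.68 for Per3 in place of 0.04, -0.77 for Arntl in place of -0.13 and -0.76 for Npas2 in place of -0.07, and 0 of 10 were called (adjusted p of 0.184 or more). In 16-week saline lungs 0 of 10 were called (2 of 10 at an unadjusted p under 0.05), where 0.00902% of all genes were. Cry1 was at 7.02, 6.85 and 6.91 in Zmpste24-/- and at 6.54, 6.34 and 6.61 in WT lungs there (0.43 ± 0.12, adjusted p = 0.239), and Nr1d1 at 9.55, 9.67 and 9.17 against 10.25, 9.72 and 10.52 (-0.70 ± 0.24, adjusted p = 0.382). Without replicate 2 of the 16-week Zmpste24-/- group Cry1 passed (0.47, adjusted p = 0.0484).

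In injured old lungs, 16-week Zmpste24-/- against 82-week WT, 4 of 10 clock genes were called, where 14.1% of all genes were. All 10 genes had groups that did not overlap, against 37.0% of all genes, 9 of them higher in Zmpste24-/- and Nfil3 lower. For Nfil3 the gap was narrow, with a highest level of 7.409 against a lowest of 7.413. Many of these genes vary together across arrays, so counts of them, here and above, are not counts of independent outcomes. Cry1 was higher by 0.70 ± 0.12 (SE, limma adjusted p = 0.000175), at 7.48, 7.37 and 7.36 against 6.62, 6.73 and 6.75. Per3 was higher by 0.94 ± 0.28 (adjusted p = 0.0209) and Nr1d1 by 0.72 ± 0.24 (adjusted p = 0.0481). Tef, at 0.54 ± 0.18, was at the threshold (adjusted p = 0.05 when rounded). Arntl was at 8.27, 8.24 and 8.22 against 7.50, 7.11 and 7.57 and missed it (0.85 ± 0.30, adjusted p = 0.0567, but 0.0234 under quantile normalization), so that in this comparison genes of both sides were higher together.

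Age, genotype, set and the hour at which lungs were taken cannot be told apart in that comparison. With the set as a term in the fit, Cry1 kept its call and those of Per3, Nr1d1 and Tef were lost (0.77, 0.83 and 0.44, adjusted p = 0.341, 0.222 and 0.444). That term rests on 7-week Zmpste24-/- saline lungs alone, the only label in both sets. Those lungs include the 3 arrays with Zmpste24 near the WT level, so the term does not separate set from age and genotype. Nr1d1 and Tef lost theirs without any of the 6 arrays, at 0.64 to 0.79 and 0.44 to 0.61, and under quantile normalization, Tef also with the mean of its 2 probe sets (0.27, adjusted p = 0.27), and Per3 without replicate 1 of 82-week WT bleomycin (0.74, adjusted p = 0.133) or replicate 2 or 3 of 16-week Zmpste24-/- bleomycin. Macrophage markers were lower in Zmpste24-/- in 7 of 8 cases (mean level of 8.22 to 8.49 against 9.73 to 10.26) and lymphocyte markers in 5 of 6 (6.74 to 7.08 against 7.97 to 8.39). Of the 14 genes that respond to glucocorticoids, 6 were higher and 0 lower (9.82 to 9.92 against 9.11 to 9.13), where 14.1% of all genes were called. The part of these 3 lists was not tested. Between the sets, 7-week Zmpste24-/- saline lungs differed in 0 of 10 clock genes (limma, 0 of 10 at an unadjusted p under 0.05), where 0.00451% of all genes did. Differences between the sets ran from -0.17 (Per3) to 0.55 (Npas2), and without the 3 arrays with Zmpste24 near the WT level, with 2 arrays against 1, from -0.09 (Nfil3) to 0.44 (Nr1d1), again with 0 called.

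Other genes of the clock were counted in the same comparisons. Of 16 further core genes and modifiers analysed, 3 rose after bleomycin in 16-week Zmpste24-/- lungs and 0 fell, where 10.6% of all genes were called, with a median log2 difference of 0.29 against -0.01 over all genes. These were Cry2, the partner repressor of Cry1 (0.84 ± 0.21, SE, adjusted p = 0.0128), Ciart, a repressor of CLOCK and BMAL1 (0.78 ± 0.20, adjusted p = 0.0112), and Hlf, a D-box activator like Dbp and Tef (0.52 ± 0.16, adjusted p = 0.0321). The response of Cry2 exceeded that of 16-week WT lungs by 1.39 ± 0.30 (adjusted p = 0.0094). Bhlhe40, a repressor that binds E-boxes, was the 1 gene of the 16 called in 16-week WT lungs after bleomycin (0.80 ± 0.17, adjusted p = 0.0174), in 7-week Zmpste24-/- lungs after bleomycin (0.78 ± 0.17, adjusted p = 0.00459) and in 82-week against 7-week WT saline lungs (0.73 ± 0.17, adjusted p = 0.00539), where 0.721%, 4.73% and 8.12% of all genes were called, so that 1 of 16 lies near the share of all genes in both of the last comparisons. In 82-week WT lungs 0 of 16 were called after bleomycin, where 1.01% of all genes were, with a median of 0.10. In injured old lungs 3 of the 16 were higher in Zmpste24-/-, with Cry2 at 0.83 ± 0.21 and Hlf at 0.70 ± 0.16, and 3 lower, with Bhlhe40 at -0.71 ± 0.17, where 14.1% of all genes were called. Of 12 clock-controlled outputs, 6 rose and 0 fell after bleomycin in 16-week Zmpste24-/- lungs, with a median of 0.44, and 1 of these 6, Pdk4, is also in the glucocorticoid list. After bleomycin 0 of 12 were called in 16-week WT and in 7-week Zmpste24-/- lungs, and 1 was lower in 82-week WT lungs. With age 2 were higher and 1 lower in WT saline lungs and 0 were called in Zmpste24-/- lungs, where 8.12% and 1.83% of all genes were called. Between genotypes 1 was lower in 7-week saline lungs, 0 were called in 16-week saline lungs, and 3 were higher and 1 lower in injured old lungs. The shares of all genes called there were 2.88%, 0.00902% and 14.1%.

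The genes whose pattern over the 30 arrays was most like that of Arntl, among 13160 others with a mean log2 level of at least 6, were led by Npas2 (Pearson r of 0.84). Gpatch1 (0.69), Adm (0.65), Abat (0.61), Rasl11a (0.60), Tmod2, Fam98b, Chrdl1, Snrnp200 and Fem1c (0.58) followed. The most opposite were Xkr6 (-0.69), Abcd4 (-0.65), Amdhd2 (-0.64), Lrsam1 (-0.63), Olfr455, Adgra1, Dgcr6, Tfeb, Btg1b and Dennd2a (-0.56), with Dbp in the 11th place. On deviations from group means, Npas2 again stood first of 13160 genes (0.89), and Tef, Per3 and Dbp were the 3 genes most opposite to Arntl (-0.85, -0.82 and -0.80). The correlations are descriptions over arrays that share groups and sets.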

How the data were processed

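RNA of whole lung was measured on Affymetrix Mouse Gene 2.0 ST arrays. The authors deposited log2 probe set values for 41345 probe sets on 30 arrays (array medians of 5.95 to 6.19). The sources used here do not give how they corrected, normalized and summarized these values, and the values were used as deposited. Of the probe sets, 23521 name 1 gene, 1820 several and 16004 none in the platform annotation. The brightest probe set naming a gene alone stood for it, which left 22180 genes. With limma 3.58.1 in R 4.3.3, a model of the 10 group means was fitted to the 30 arrays together, as the study's methods name limma, with Benjamini-Hochberg adjustment over all genes and a call at an adjusted p under 0.05. The fit was tested on simulated data. The number of arrays, 3 a group, limits the precision. The clock genes and the gene lists were chosen with earlier results of these data known, so the calls are not independent of that choice. Other genes were named by rule: up to 4 called genes of a list by size of difference, and the 10 genes most like and most opposite to Arntl. Some other genes of the clock are not reported here. Alternatives were quantile normalization, median centring, a filter on dim genes (mean log2 of at least 5.2), the mean of probe sets, array weights, a robust variance with a trend, stricter thresholds, other sets of arrays, the replicate number as a block, and the set as a term or random block. Same-numbered arrays did not deviate together (correlations of -0.38 to 0.28, in no comparison above 0.1 for all 3 pairs), so the numbers were not taken as pairs. Correlations, permutation tests, motif searches and figures used python 3.11.15, pandas 2.3.3, numpy 2.4.6, scipy 1.17.1 and matplotlib 3.10.9.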

Additional observations from a re-analysis of the deposited data

Results flagged for a closer look

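Cry1 differed between bleomycin and saline lungs by unlike amounts in groups of mice that differ in both genotype and age. Genotype, age and the hour at which lungs were taken cannot be told apart there. The 7-week Zmpste24-/- saline group also held squamous and muscle RNA, whose part was not tested. The difference between the amounts was tested with limma, in contrasts added after the values were seen. The Cry1 response in 7-week Zmpste24-/- lungs exceeded that in 82-week WT lungs of the same set by 0.75 (log2, adjusted p = 0.0115). The response in 16-week Zmpste24-/- lungs exceeded the same WT response by 0.72 (adjusted p = 0.0298). In both Zmpste24-/- groups each of 3 bleomycin arrays lay above each of 3 saline arrays, and in 82-week WT mice each lay below. The first difference was 0.58 (adjusted p = 0.272) without the 3 arrays labelled Zmpste24-/- on which Zmpste24 was near the WT level. The second difference crosses the sets and kept its call in 14 of 24 alternatives. The planned contrast within set 1, between the responses of 16-week Zmpste24-/- and 16-week WT mice, did not pass (0.55, limma adjusted p = 0.0591). No group has more than 3 arrays, so single arrays were not tested for standing apart from their group.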

How the results depend on the processing

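Over the 14 calls of a clock gene, 270 alternatives were run. In 186 the call was kept, in 84 it was lost, and in 0 the direction turned. The number of clock genes called moved as follows. For age in WT saline it was 3, and 1 at an adjusted p under 0.01, 6 with array weights and 1 to 4 without single arrays. For age in Zmpste24-/- saline it was 1, and 0 with a log2 difference above 1, at an adjusted p under 0.01, with array weights, with only the groups compared or with the replicate block, 4 with all 6 control arrays or with set as a random block (which also uses all 6), and 0 to 1 without single arrays. For bleomycin in 16-week Zmpste24-/- it was 3, and 1 above a log2 difference of 1, 1 at 0.01, 0 with only the groups compared and 2 to 4 without single arrays. For bleomycin in 7-week Zmpste24-/- it was 1, and 0 above a log2 difference of 1, 4 with array weights, 0 without the 3 arrays with Zmpste24 near the WT level and 0 to 1 without single arrays. For bleomycin in 82-week WT it was 0, and 1 with array weights, 3 with only the groups compared and 1 without those 3 arrays. The difference of age effects gave 0 to 1 without single arrays. The difference of bleomycin effects at 16 weeks gave 0, and 2 with the filter on dim genes, 3 without those 3 arrays and 0 to 2 without single arrays. The differences added after seeing the data gave 1 each. That in old mice gave 0 above a log2 difference of 1, at 0.01 or with only the groups compared and 0 to 1 without single arrays, and that in set 2 gave 0 above a log2 difference of 1, at 0.01 or without those 3 arrays and 2 with array weights or only the groups compared. Genotype in 16-week saline gave 0 to 1 without single arrays. Genotype in old bleomycin gave 4, and 0 above a log2 difference of 1, 1 at 0.01, 7 with only the groups compared, 1 with set as a term and 1 to 2 without single arrays. The set gave 0, and 1 with array weights. The test of any difference gave 7, and 5 to 9 without single arrays. The cause of these changes was not tested.

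With the replicate number as a block, which does not pair these arrays, genotype in old bleomycin gave 2 clock genes in place of 4 and age in Zmpste24-/- saline 0 in place of 1. The block also ended the call of Dbp with age in WT saline (adjusted p = 0.0517), and of the 14 calls it ended no others than Cry1 with age in Zmpste24-/- saline (0.0598) and Nr1d1 and Tef in injured old lungs (0.0559 and 0.0599).

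The correlation of Cry1 with Arntl, 0.38 over all arrays, was -0.005 within set 2 and 0.48, past the threshold, without those 3 arrays, an alternative added after seeing the data. That of Dbp was -0.60 within set 1 and no longer past the threshold. Within set 2 those of Nr1d2 (-0.63), Per3 (-0.64) and Tef (-0.58) passed it, as did Nr1d2 under quantile normalization (-0.50) and Clock with array medians centred (0.44).

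Over all genes, array weights moved the counts, for example from 1049 to 4925 after bleomycin in 7-week Zmpste24-/- lungs and from 1802 to 4821 with age in WT, and fitting only the groups compared lowered that after bleomycin in 16-week Zmpste24-/- lungs from 2350 to 123. Shares of all genes called are therefore to be read with the fit that gave them. With 3 arrays a group, a miss of the threshold does not show that a clock gene stayed level.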
